A study of Mus musculus with 18 samples.

Results

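The 7 genes described here are Tox and Tox2, which encode HMG-box DNA-binding factors, and Bcl6, Cxcr5, Il21, Sh2d1a and Slamf6, which belong to the program of follicular helper T cells. They were taken by name from a table of 34162 mouse genes and were chosen by their counts across the 18 libraries, by organ and genotype, with earlier results of these data known. Which contrast led to the choice is not recorded, so each one counts as used, and the values and p-values of the members below are a description that supports no pattern. All 7 were among the 14876 genes with enough counts to be tested. Each library holds the messenger RNA of roughly 500 CD4+ effector T cells, sorted at week 3 from Rag-deficient hosts that had received T cells. Such hosts form neither T nor B cells. The CAR-deficient cells were C57BL/6 Nr1i3-/-, lacking the constitutive androstane receptor, a nuclear receptor best known as a sensor of drugs and bile acids in the liver. The wild type cells were C57BL/6 CD45.1+. Each genotype was taken from the small intestine lamina propria (siLP), the colon lamina propria (cLP) and the spleen with 3 libraries per group, which makes 18 libraries in 6 groups. The 3 libraries of a group are called a, b and c by the order of their columns, since the columns carry no replicate numbers.

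Follicular helper cells are CD4+ T cells that enter B cell follicles and support germinal centres. The repressor BCL6 is required for this fate, the receptor CXCR5 guides the cells toward its ligand CXCL13 in the follicle, and IL-21 acts on B cells and back on T cells. The adaptor SAP, encoded by Sh2d1a, couples receptors of the SLAM family such as SLAMF6 to signalling during contact with B cells, while TOX2 has been linked in mice to the follicular helper program and TOX to the persistence of chronically stimulated CD8+ T cells.

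In these cells, Tox2, Il21, Cxcr5, Sh2d1a and Slamf6 had lower mean levels in CAR-deficient than in wild type cells of all 3 organs. Tox had higher means, and Bcl6 differed in direction between organs. For Sh2d1a and Slamf6 the averaged log2 fold changes were small, at -0.31 ± 0.26 and -0.25 ± 0.25 (SE). The share of all genes with lower means in all 3 organs was not computed. None of the 7 genes passed the test between genotypes in edgeR. The range between libraries of a group was wide for Il21, Cxcr5 and Bcl6, and part of the spread followed the column ending of the library.

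The promoters of Tox2 and Il21 are shown because these are the members whose level was below that of wild type in each of 9 pairs of libraries with the same organ and column ending. The share of all genes with this trait was not computed, and it served only to pick the windows to print. The RefSeq table held promoter windows for 4 members (Tox2, Bcl6, Il21 and Slamf6), each running 250 bases before to 50 bases after a gene start on GRCm38.p6. The table lists 5 windows for Tox2 and 2 for Bcl6, of which 1 each was used. The Tox2 window is chr2:163202877-163203176 on the plus strand, and the Il21 window is chr3:37232587-37232886 on the minus strand. Capitals mark matches to GGAAA, the core bound by NFAT factors, or its reverse complement.
Tox2: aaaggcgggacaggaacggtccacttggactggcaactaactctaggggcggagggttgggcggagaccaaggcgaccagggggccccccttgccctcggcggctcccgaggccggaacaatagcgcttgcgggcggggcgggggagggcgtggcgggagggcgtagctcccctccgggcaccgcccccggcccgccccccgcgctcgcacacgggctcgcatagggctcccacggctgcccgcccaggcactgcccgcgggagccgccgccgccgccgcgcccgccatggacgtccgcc
Il21: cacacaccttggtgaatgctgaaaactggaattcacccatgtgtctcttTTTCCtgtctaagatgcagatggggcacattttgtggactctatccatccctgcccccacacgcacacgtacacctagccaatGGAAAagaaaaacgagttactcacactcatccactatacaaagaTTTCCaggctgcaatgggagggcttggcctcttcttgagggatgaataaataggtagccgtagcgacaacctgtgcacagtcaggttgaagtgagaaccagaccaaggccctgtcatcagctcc

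Il21 held 3 matches to GGAAA, Bcl6 held 1, and Tox2 and Slamf6 held 0, where 61.3% of 32851 mouse promoter windows of this length held at least 1 on either strand. The motif AGGTCA, to which nuclear receptors bind, was absent from all 4 windows and present in 16.3% of all windows. TGANTCA, the AP-1 motif, was absent from the 4 windows (7.81% of all windows), and TTCNNNGAA, a STAT-type motif, was found once, in Bcl6 (8.3% of all windows). These motifs do not overlap one another in the windows of Bcl6 and Il21. A match describes the letters of a window and was not tested as a binding site.

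Per kilobase of annotated exons, the members spanned a wide range of levels over the 18 libraries. Levels are CPM, counts scaled to a common total on library sizes scaled by TMM, and for this ranking they were divided by the length of all exons of a gene, which is longer than a single transcript. Sh2d1a had a median of 72.1 CPM per kilobase, and Slamf6, Tox and Il21 followed closely together with 12.6, 12.3 and 11.8 CPM per kilobase. Tox2 and Cxcr5 had medians of 5.50 and 3.41 CPM per kilobase, and Bcl6 was lowest with 0.405 CPM per kilobase. The median of Sh2d1a stood above that of 93.9% of the tested genes, and that of Bcl6 above that of 27.1%. All levels given below are CPM and are compared within a gene.

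**Figure D1:**
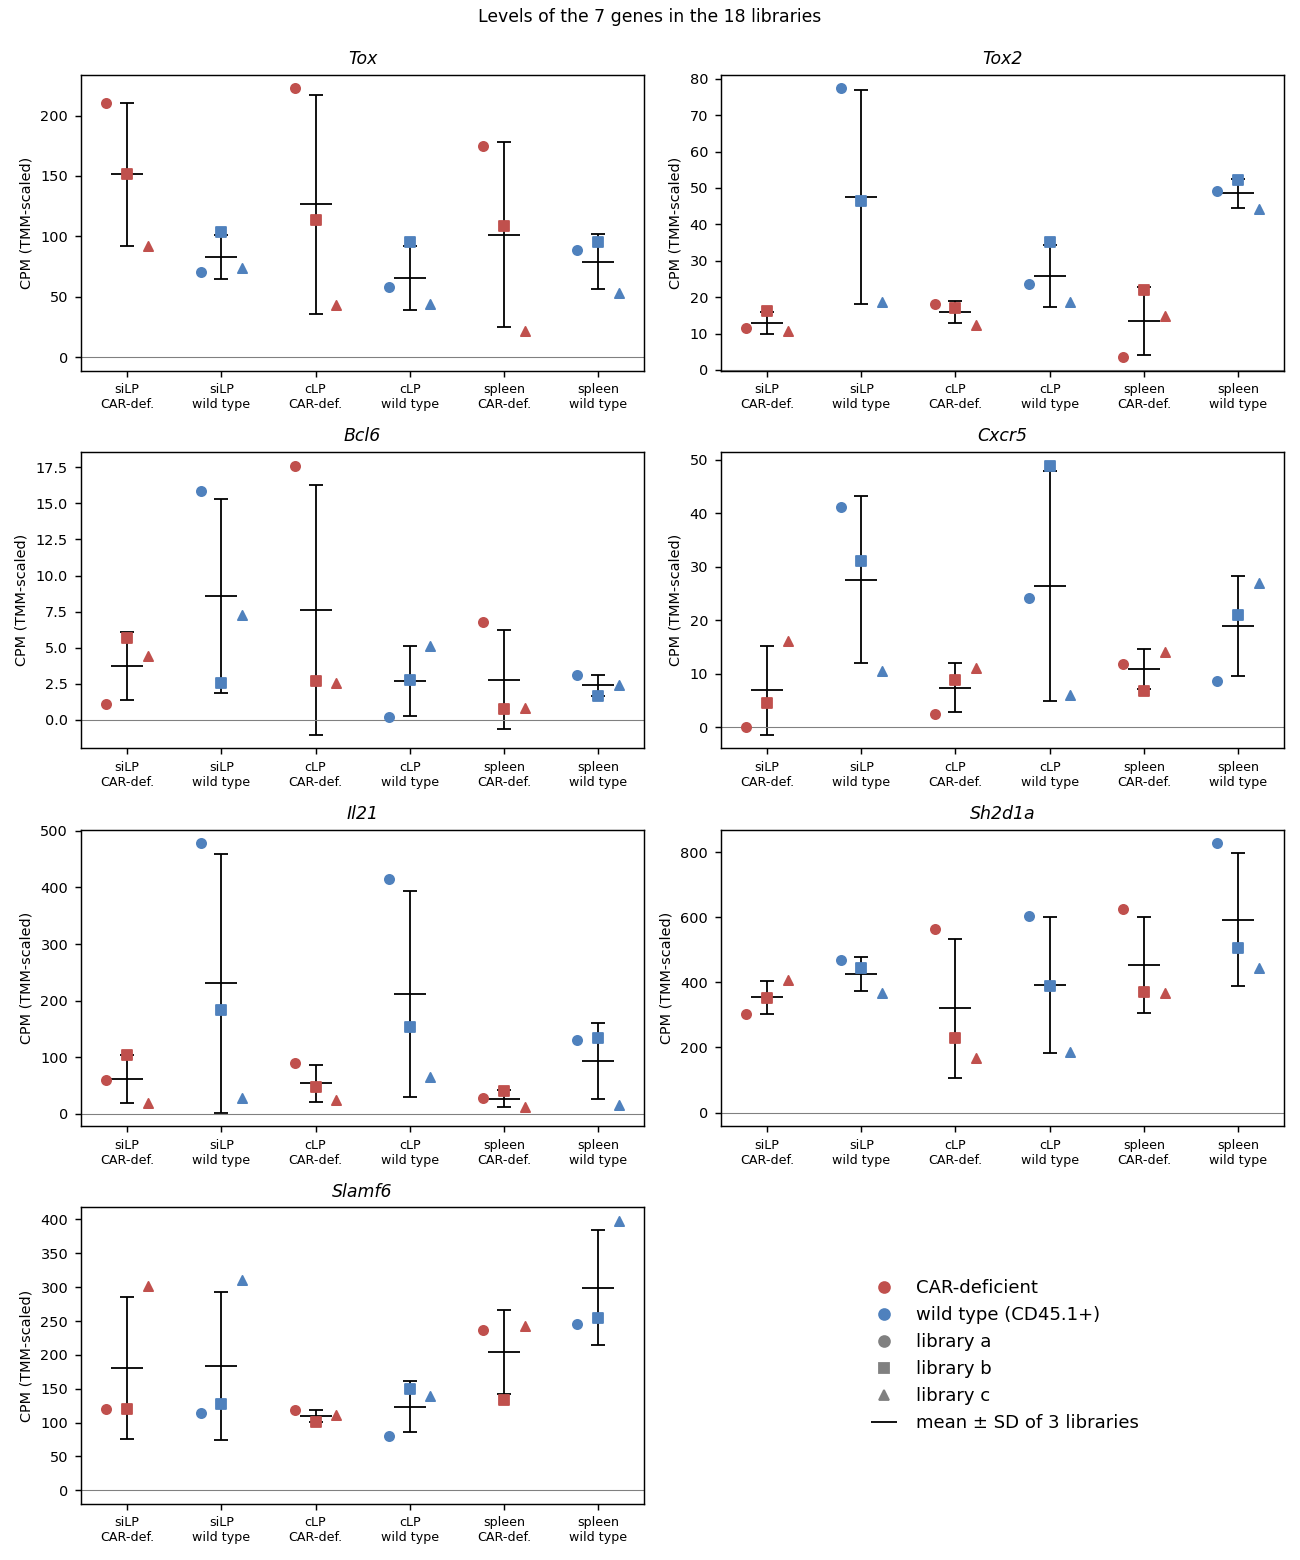
Level of each of the 7 genes in every library (CPM, linear axis), by organ and genotype, with marker shapes for libraries a, b and c. Tox2 in CAR-deficient libraries sits below all wild type libraries of the same organ, while Il21 reaches its highest levels in wild type libraries a and b.

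Total counts per library ran from 19605315 to 25436581. Counts of Nr1i3, the targeted gene, did not separate the labelled genotypes. They were 196, 0 and 0 in siLP libraries a, b and c labelled CAR-deficient against 0, 5 and 0 in wild type, 0, 29 and 1 against 0, 0 and 10 in cLP, and 0, 14 and 14 against 36, 0 and 7 in spleen. The siLP library labelled CAR-deficient a had the highest count of all, and cLP library b and spleen libraries b and c labelled CAR-deficient also held counts. Nr1i3 overlaps Tomm40l on the opposite strand, and counting is not stated to use strand, so reads of a shared stretch cannot be told apart. Whether these counts go against the labels cannot be told from them. CAR-deficient and wild type below therefore stand for the labels, and the labels do not say which part of the gene was deleted. The siLP genotype estimates of the members are also given without siLP library a. Leaving out cLP library b, spleen library b or spleen library c labelled CAR-deficient, 1 at a time, left the sign of each member's genotype estimate in that organ as it was. For Tox2 the cLP estimate was then -0.75, and the spleen estimates were -2.40 and -1.93. For Il21 the cLP estimate was -1.89, and the spleen estimates were -2.23 and -1.43. The receptor segment Trbv26 made up 52.0% to 72.0% of the beta chain V counts in libraries a and b of the 3 wild type groups, at most 0.727% in the wild type libraries c and at most 0.478% in the CAR-deficient libraries. The 6 libraries with ending a held counts for 15466 to 16128 genes against 17013 to 18819 in the others, and 3.70% to 3.98% mitochondrial counts against 2.23% to 3.22%. The 8 T cell markers summed to 6203 to 14480 CPM and the 8 B cell markers to 3.44 to 43.0 CPM, with Pax5, a B cell factor, under 3 counts in every library. Summed levels of some other cell types' markers differed between the labelled genotypes without overlap, 0 of these markers passed the test, and their part in the genotype differences was not tested. The 9 epithelial markers, 7 of them tested and 0 past the test, summed to 15.1 to 23.7 CPM in CAR-deficient and 4.74 to 8.74 CPM in wild type siLP, and all 7 lay above 0 there. In cLP they summed to 39.9 to 232 CPM in CAR-deficient and 20.9 to 37.1 CPM in wild type cells, again with all 7 above 0. The spleen sums overlapped, at 7.70 to 11.9 CPM in CAR-deficient and 8.88 to 13.0 CPM in wild type cells, with Krt20 and Vil1 under 3 counts in every spleen library. The 9 myeloid markers, 7 of them below 0 in siLP, summed to 58.2 to 73.8 CPM in CAR-deficient and 93.3 to 166 CPM in wild type siLP, with S100a8 under 3 counts in all of these libraries. The 7 markers of NK and innate lymphoid cells summed to 197 to 203 CPM in CAR-deficient and 102 to 146 CPM in wild type spleen. As single genes, 3 of them lay above 0 and 4 below 0 in spleen, with a median of -0.11. Kit was under 3 counts in all CAR-deficient spleen libraries, and Ncr1 in all wild type ones. In such bulk samples, fewer cells of a type and less RNA per cell cannot be told apart.

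Tox (ENSMUSG00000041272, chr4:6686353-6991557, minus strand, GRCm38) had higher mean levels in CAR-deficient than in wild type cells of each organ, with overlapping libraries throughout. In siLP it was at 210.0, 152 and 92.1 CPM in libraries a, b and c labelled CAR-deficient, against 70.7, 103 and 74.0 CPM in wild type. In cLP it was at 223, 113 and 43.4 CPM in libraries labelled CAR-deficient, against 58.1, 95.3 and 44.1 CPM in wild type. In spleen it was at 175, 109 and 21.3 CPM in libraries labelled CAR-deficient, against 89.0, 95.5 and 53.2 CPM in wild type. Within the CAR-deficient cells of every organ, library a was the highest and library c the lowest, and wild type libraries did not show this order. The log2 fold change of CAR-deficient over wild type, averaged over the organs, was 0.72 ± 0.36 (SE; unadjusted p = 0.0614, adjusted p = 0.879 by edgeR's quasi-likelihood test). It was 0.52 ± 0.26 in a fit that took the column ending as a batch, 0.13 ± 0.41 without the 6 libraries a, -0.26 ± 0.36 with the batch and without libraries a and b of the wild type, and 0.62 without the siLP library labelled CAR-deficient a. In siLP alone the value was 0.87 ± 0.62, and 0.56 ± 0.70 without that library.

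Tox2 (ENSMUSG00000074607, chr2:163203125-163324170, plus strand) was lower in every CAR-deficient library than in every wild type library of the same organ. The siLP libraries a, b and c held 11.6, 16.2 and 10.8 CPM in those labelled CAR-deficient, against 77.5, 46.4 and 18.8 CPM in wild type. The cLP libraries held 18.1, 17.1 and 12.5 CPM in CAR-deficient cells, against 23.5, 35.2 and 18.6 CPM in wild type. The spleen libraries held 3.48, 22.1 and 14.9 CPM in CAR-deficient cells, against 49.1, 52.2 and 44.1 CPM in wild type. The gap was narrow in siLP and cLP, where wild type library c lay close to the highest CAR-deficient library, and wide in spleen. Of the 14876 genes tested, 11 (0.0739%) were lower without overlap in all 3 organs. The averaged log2 fold change was -1.48 ± 0.33 (unadjusted p = 0.000354, adjusted p = 0.195 by edgeR). DESeq2's Wald test put it at -1.48 ± 0.33 with an adjusted p of 0.00213, past the threshold of 0.05, as it did for 0.87% of the genes it tested. Both tests took the libraries of the 3 organs as independent, although libraries with the same column ending shared part of their spread. Their SE and p-values do not allow for this. By organ, edgeR gave -1.88 ± 0.57 in siLP (-1.83 without the library labelled CAR-deficient a), -0.70 ± 0.56 in cLP and -1.84 ± 0.57 in spleen. Tested as a difference between organs, the genotype effect in cLP was above that in spleen by 1.15 ± 0.79 on the log2 scale, which did not pass edgeR's test. Without libraries a and b of the wild type, which carry the high Trbv26 share, the averaged value was -0.83 ± 0.49.

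Of the other TOX genes, Tox3 was not tested, with at most 0.0616 CPM in any library. Tox4, a broadly expressed member, was at 83.9, 72.7 and 76.4 CPM in siLP libraries labelled CAR-deficient, against 24.9, 54.0 and 47.9 CPM in wild type. The averaged genotype estimate of Tox4 was 0.27 ± 0.29 and did not pass edgeR's test (adjusted p = 1). By organ the Tox4 estimate was 0.88 ± 0.51 in siLP, 0.22 ± 0.51 in cLP and -0.29 in spleen. Its libraries overlapped between genotypes in cLP and in spleen. Of the averaged genotype estimates of Tox, Tox2 and Tox4, only that of Tox2 lay below 0. The Tox estimate was -0.26 with the batch term and without libraries a and b of the wild type. A difference between these paralogs was not tested.

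**Figure D2:**
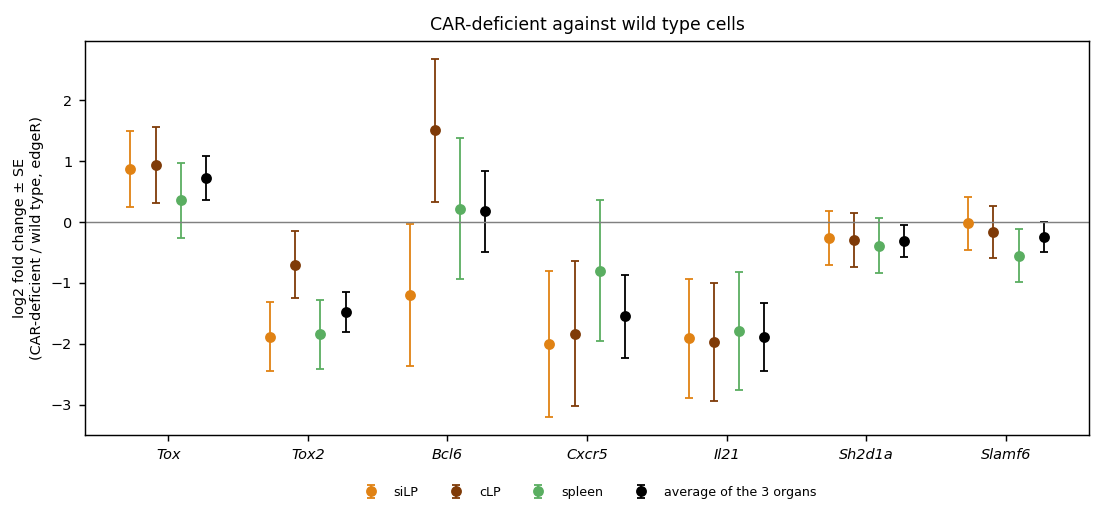
Log2 fold change of CAR-deficient over wild type cells for the 7 genes in siLP, cLP, spleen and averaged over the 3 organs (edgeR; points are estimates, bars are SE). Tox2 (-1.48), Cxcr5 (-1.55) and Il21 (-1.89) lie below 0 in the average, Tox (0.72) lies above it, and the wide bars of Bcl6 and Cxcr5 cover more than 1 log2 unit on each side within an organ.

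Bcl6 (ENSMUSG00000022508, chr16:23965052-23988852, minus strand), the repressor that defines the follicular helper fate, was low and variable. Its siLP levels were 1.11, 5.69 and 4.42 CPM in libraries labelled CAR-deficient, against 15.9, 2.56 and 7.28 CPM in wild type. In cLP the libraries labelled CAR-deficient held 17.6, 2.66 and 2.54 CPM, against 0.169, 2.77 and 5.08 CPM in wild type. In spleen they held 6.75, 0.752 and 0.815 CPM, against 3.09, 1.64 and 2.40 CPM in wild type. Libraries a gave both the highest level, 17.6 CPM, and the lowest, 0.169 CPM, and the genotypes overlapped in every organ. The averaged log2 fold change was 0.18 ± 0.67 (adjusted p = 1 by edgeR), with -1.19 ± 1.17 in siLP (-0.78 without the library labelled CAR-deficient a), 1.505 ± 1.18 in cLP and 0.22 ± 1.16 in spleen. Without the 6 libraries a the average was -0.65 ± 0.38. The 8 co-repressor genes of BCL6 included 7 that were tested, of which 0 passed the test and 6 had an averaged genotype estimate above 0. Their median log2 fold change was 0.16, against -0.01 over all genes tested.

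Cxcr5 (ENSMUSG00000047880, chr9:44511787-44561877, minus strand), the chemokine receptor of follicular cells, had lower means in CAR-deficient cells of each organ. Its siLP levels were 0, 4.41 and 16.1 CPM in libraries labelled CAR-deficient, against 41.1, 31.0 and 10.5 CPM in wild type. In cLP it was at 2.34, 8.76 and 11.04 CPM in libraries labelled CAR-deficient, against 24.1, 48.9 and 6.07 CPM in wild type. In spleen it was at 11.7, 6.83 and 14.04 CPM in libraries labelled CAR-deficient, against 8.68, 20.9 and 27.0 CPM in wild type. In both gut sites wild type library c lay below CAR-deficient library c, while libraries a and b showed the opposite order. The averaged log2 fold change was -1.55 ± 0.68 (unadjusted p = 0.0374, adjusted p = 0.823 by edgeR). In siLP alone it was -2.01 ± 1.20, and -1.44 ± 0.91 without the library labelled CAR-deficient a. Without libraries a and b of the wild type the averaged estimate was -0.55 ± 1.07. With a batch term for the column ending and without those libraries, it was 0.42 ± 1.32. Counting is not stated to use strand, and the 3' end of Cxcr5 overlaps Bcl9l on the opposite strand, which was at 3.62 to 12.9 CPM, so reads of the shared stretch cannot be told apart.

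Il21 (ENSMUSG00000027718, chr3:37222759-37232636, minus strand), the cytokine of the set, had lower means in CAR-deficient cells of each organ. In siLP, Il21 was at 60.2, 104 and 19.5 CPM in libraries a, b and c labelled CAR-deficient, against 478, 184 and 28.7 CPM in wild type. In cLP it was at 89.4, 47.7 and 24.6 CPM in libraries labelled CAR-deficient, against 415, 154 and 64.4 CPM in wild type. In spleen it was at 28.6, 40.5 and 11.1 CPM in libraries labelled CAR-deficient, against 129.9, 133 and 15.95 CPM in wild type. Library c was the lowest of its group in all 6 groups. The wild type libraries a and b, at 129.9 CPM or more, lay above every CAR-deficient library of any organ, while wild type libraries c lay within the range of the CAR-deficient ones. Compared within an organ and a column ending, Il21 was lower in the CAR-deficient library in 9 of 9 pairs, as Tox2 was. The share of all genes with such a count was not computed. The pairs also repeat the same column endings, so nothing is read from the count. The averaged log2 fold change was -1.89 ± 0.56 (unadjusted p = 0.00397, adjusted p = 0.464 by edgeR). With a batch term for the column ending it was -1.58 ± 0.29 (adjusted p = 0.0760 by edgeR).

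The Il21 estimate depended on libraries a and b of the wild type. Leaving those 6 libraries out sets wild type libraries c against CAR-deficient libraries of all endings, and the value was then 0.52 ± 0.57, above 0. With the batch term and without the same 6 libraries, it was -0.81 ± 0.39 (unadjusted p = 0.0729 and adjusted p = 1 by edgeR). The part of the high Trbv26 share of these libraries in the Il21 difference was not tested. In siLP the estimate was -1.91 ± 0.97, and -1.92 without the library labelled CAR-deficient a. It was -0.77 without siLP wild type library a, and -2.53 without siLP library b labelled CAR-deficient. In cLP the estimate was -1.97 ± 0.98, and -1.01 without cLP wild type library a. Of the 10 genes of the IL-21 receptor and its signalling, 0 passed the test between genotypes, with 6 below 0 and a median of -0.15 in the average. The receptor gene Il21r had a log2 fold change of -0.21 ± 0.33.

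**Figure D3:**
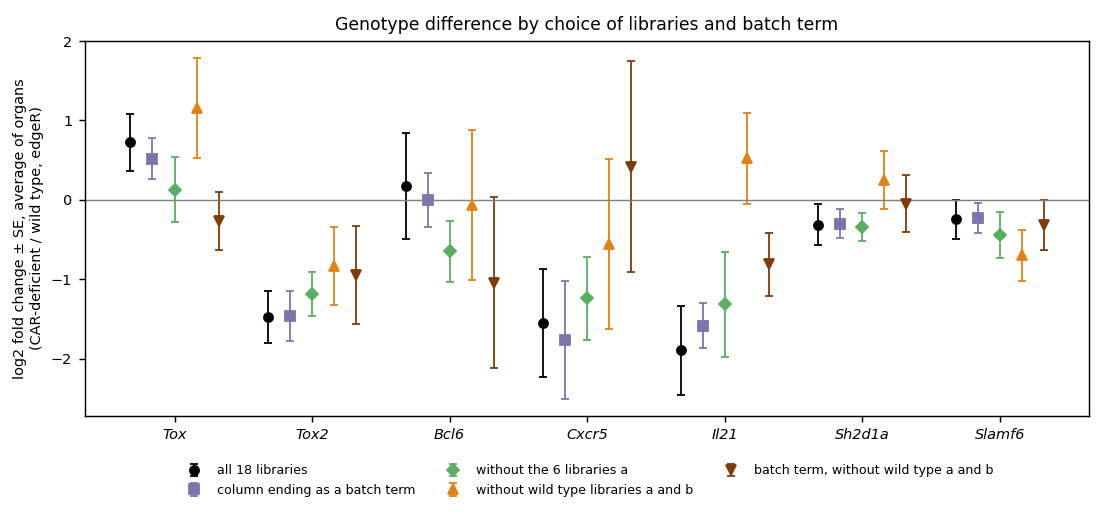
Averaged log2 fold change of CAR-deficient over wild type cells for the 7 genes under 5 choices of libraries and batch term (edgeR; points are estimates, bars are SE). Tox2 stays below 0 under each choice shown, while Il21 moves to 0.52 without wild type a and b and back to -0.81 when the batch term is added.

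Sh2d1a (ENSMUSG00000005696, chrX:42502453-42529330, plus strand), which encodes SAP, was the most abundant of the 7 genes. The siLP levels of Sh2d1a were 304, 353 and 406 CPM in libraries labelled CAR-deficient, against 468, 444 and 367 CPM in wild type. In cLP it was at 565, 230 and 169 CPM in libraries labelled CAR-deficient, against 603, 387 and 187 CPM in wild type. In spleen it was at 625, 369 and 366 CPM in libraries labelled CAR-deficient, against 827, 507 and 445 CPM in wild type. The genotypes overlapped in every organ, and 8 of 9 pairs of the same organ and column ending were lower in the CAR-deficient library. No share over all genes was computed for that count. The averaged log2 fold change was -0.31 ± 0.26 (unadjusted p = 0.240, adjusted p = 1 by edgeR). In siLP it was -0.27 ± 0.44, and -0.17 ± 0.53 without the library labelled CAR-deficient a. The 3' end of Sh2d1a overlaps Tenm1 on the opposite strand, which was at 0.484 to 3.40 CPM.

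Slamf6 (ENSMUSG00000015314, chr1:171917515-171953170, plus strand), a receptor that binds itself on neighbouring cells, differed little between genotypes in the gut. The siLP levels of Slamf6 were 120.4, 120.5 and 302 CPM in libraries labelled CAR-deficient, against 114, 128 and 310.2 CPM in wild type. In cLP it was at 119, 101 and 111 CPM in libraries labelled CAR-deficient, against 80.4, 149.6 and 139.9 CPM in wild type. In spleen it was at 237, 133 and 243 CPM in libraries labelled CAR-deficient, against 246, 254 and 398 CPM in wild type. The 2 groups did not overlap, by a narrow margin. The averaged log2 fold change was -0.25 ± 0.25 (adjusted p = 1 by edgeR), with -0.02 ± 0.43 in siLP, -0.16 ± 0.43 in cLP and -0.55 ± 0.43 in spleen. In siLP it was 0.21 without the library labelled CAR-deficient a. Leaving out 1 library moved the average between -0.44 (without siLP library c labelled CAR-deficient) and -0.0454 (without siLP wild type library c). The cLP value ran between -0.39 and -0.00358 without cLP wild type library a or b, and the spleen value between -0.70 and -0.30 without spleen library c labelled CAR-deficient or of the wild type. Slamf6 starts 696814 bases from the end of the deleted gene, Nr1i3, on chromosome 1. Of the 77 genes within 1 Mb of Slamf6, 50 were tested and 0 passed the test in any genotype comparison. Over all genes edgeR called 0% in each organ and 0.0134% in the average, so nothing is read from this count. At an unadjusted p under 0.05 edgeR found 4 of the 50 in siLP (4.31% of all genes) and 0 in cLP (2.44%). It found 0 in spleen (1.95%) and 2 in the average (5.77%). An effect of the deletion on nearby genes was not tested. The other genes of the SLAM receptors and their adaptors, 10 tested of 11, included 0 that passed, with 6 above 0 and a median of 0.09 in the averaged genotype comparison.

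Counted over the 7 members, 0 passed edgeR's adjusted threshold in any comparison of genotypes. Over all genes tested, edgeR called 0% in each single organ and 0.0134% in the average. At an unadjusted p under 0.05 edgeR found 3 members in the average (Tox2, Il21 and Cxcr5), where 5.77% of all genes were found. It found 1 in siLP (Tox2; 4.31% of all genes), 0 in cLP (2.44%) and 1 in spleen (Tox2; 1.95%). Members lower in CAR-deficient cells with no overlap numbered 1 in siLP (4.55% of all genes), 1 in cLP (3.33%) and 2 in spleen (3.11%). Since the members were chosen with such results known, nothing is read from these shares. None of the members passed edgeR's test of a difference of the genotype effect between organs, which called 0% of all genes. At an unadjusted p under 0.05 those 3 tests found 0 of the 7 members, with 2.27% of all genes found for siLP against spleen, 1.24% for cLP against spleen and 2.41% for siLP against cLP.

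Other genes of the follicular helper program did not pass the test between genotypes. Of 24 such genes, 22 were tested and 0 passed in any organ or in the average. In the average of organs 16 of the 22 lay below 0, with a median log2 fold change of -0.47 against -0.01 over all genes, and in spleen 20 of the 22 did, with a median of -0.67 against 0.01. In siLP and in cLP 14 of the 22 lay below 0, with medians of -0.32 and -0.27. The list was chosen with earlier results known and was not tested as a group. Icos, a costimulatory receptor needed by follicular helper cells, averaged 162 ± 62.7 CPM in CAR-deficient and 330.1 ± 129.6 CPM in wild type spleen cells (SD, n = 3 each). The Icos libraries overlapped between genotypes in both gut sites. In siLP they held 426, 285 and 314 CPM in those labelled CAR-deficient, against 1004, 349 and 379 CPM in wild type. In cLP they held 767, 749 and 462 CPM in those labelled CAR-deficient, against 1302, 844 and 612 CPM in wild type. For Icos the genotype estimate over the organs was -0.76 ± 0.25 (adjusted p = 0.592 by edgeR). Pou2af1, a coactivator of octamer-binding factors, had an estimate of -3.29 ± 1.18 (adjusted p = 0.684 by edgeR), and Cd200, a surface glycoprotein, had one of -1.45 ± 0.46 in spleen (adjusted p = 1 by edgeR). Irf4, a transcription factor induced by T cell receptor signals, had -0.26 ± 0.23.

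Of 15 genes known to oppose this fate, all were tested and 0 passed between genotypes. In the average 12 lay above 0 (median 0.13), in siLP 10 (median 0.20), in cLP 7 (median -0.06) and in spleen 13 (median 0.45). Il2ra, the IL-2 receptor alpha chain, had the smallest p of the list in the average, at 1.18 ± 0.50 (adjusted p = 0.805 by edgeR). Its mean was 11.99 ± 3.83 CPM in CAR-deficient and 6.72 ± 6.28 CPM in wild type siLP cells, and 14.03 ± 15.3 CPM in CAR-deficient and 5.21 ± 0.390 CPM in wild type spleen cells. The cLP mean was 38.5 ± 20.2 CPM in CAR-deficient and 15.97 ± 10.6 CPM in wild type cells (SD, n = 3 each).

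In the list of genes tied to TOX and T cell exhaustion, 0 of 15 passed between genotypes and 8 lay above 0, with a median of 0.02. Lag3, an inhibitory receptor, had an averaged log2 fold change of -1.71 ± 0.53 (adjusted p = 0.511 by edgeR), and Ikzf2, which encodes the factor Helios, had one of -0.67 ± 0.21 (adjusted p = 0.494 by edgeR). Both lay below 0 while the estimate for Tox lay above it. Lag3 was low in all libraries. In siLP it was at 2.05, 1.79 and 1.08 CPM in libraries labelled CAR-deficient, against 4.64, 4.78 and 2.36 CPM in wild type. In cLP the values were 1.31, 1.42 and 1.61 CPM against 10.2, 7.45 and 1.15 CPM, and in spleen 0.408, 2.29 and 0.433 CPM against 3.52, 6.25 and 0.938 CPM. Wild type library c thus lay below a CAR-deficient library in cLP and in spleen. The list of progenitor-like T cell genes, all 12 of which were tested, split evenly with 6 above and 6 below 0, a median of -0.04 and 0 past the test. Tcf7, which encodes TCF-1 and is on this list and the follicular helper list, had estimates of 0.34 ± 0.57 in siLP, 0.28 ± 0.57 in cLP, -0.48 ± 0.57 in spleen and 0.05 ± 0.33 in the average, none past edgeR's test.

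Between organs none of the 7 members passed the test, while several of their partner genes did. The organ comparisons average both genotypes, and the comparisons with spleen share the same spleen libraries. For all 7 members the 6 libraries of an organ overlapped with the 6 of each other organ, where 2.23% of all genes did not overlap between siLP and spleen, 3.48% between cLP and spleen and 0.618% between siLP and cLP. At an unadjusted p under 0.05 edgeR found 0 members for siLP minus spleen (9.65% of all genes) and 0 for siLP minus cLP (8.34%). None passed edgeR's adjusted threshold, where 0.847% of all genes were called for siLP minus spleen, 3.07% for cLP minus spleen and 0% for siLP minus cLP.

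Slamf6 came closest to a call. It ranged from 114 to 310.2 CPM with a median of 124 CPM in siLP, from 80.4 to 149.6 CPM with a median of 115 CPM in cLP, and from 133 to 398 CPM with a median of 244 CPM in spleen. Its log2 fold change of cLP over spleen was -1.09 ± 0.31 (unadjusted p = 0.00294, adjusted p = 0.0704 by edgeR), the only member with an unadjusted p under 0.05 there, where 15% of all genes had one. DESeq2's Wald test, which called 7.11% of its genes in that comparison, and the fit that took the column ending as a batch, which called 5.02%, each called Slamf6. So did edgeR when siLP wild type library c or siLP library c labelled CAR-deficient was left out. For siLP over spleen it was -0.44 ± 0.31 and for siLP over cLP 0.65 ± 0.31. Erythroid markers, 5 genes, summed to at most 13.0 CPM in siLP, at most 18.7 CPM in cLP and 146 to 2316 CPM in spleen libraries. The epithelial markers summed to 4.74 to 23.7 CPM in siLP, 20.9 to 232 CPM in cLP and 7.70 to 13.0 CPM in spleen, and 7 of 7 lay above 0 for cLP over spleen with a median of 3.49, of which Cdh1 and Krt8 passed edgeR's test. Myeloid markers summed to 58.2 to 166 CPM in siLP, 27.6 to 122 CPM in cLP and 20.6 to 48.8 CPM in spleen. The part of these cells in the organ differences was not tested.

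**Figure D4:**
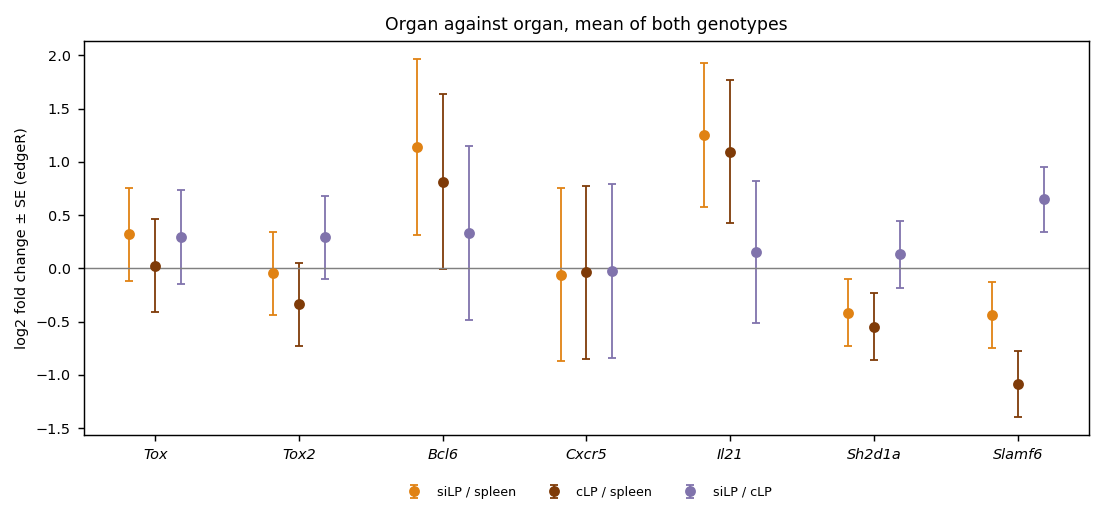
Log2 fold change between organs for the 7 genes, as the mean of both genotypes (edgeR; points are estimates, bars are SE). Slamf6 in cLP over spleen (-1.09) stands farthest from 0 in units of its error, and Il21 lies above 0 in both comparisons with spleen (1.25 and 1.10).

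Il21 had medians of 82.0 CPM in siLP, 76.9 CPM in cLP and 34.6 CPM in spleen, with log2 fold changes of 1.25 ± 0.68 for siLP over spleen and 1.10 ± 0.67 for cLP over spleen. Bcl6 had 1.14 ± 0.83 and 0.81 ± 0.82 in the same comparisons. Without siLP wild type library a the first value of Il21 was 0.69 and that of Bcl6 0.71, and without cLP wild type library a the second value of Il21 was 0.63. The second value of Bcl6 was 0.0154 without cLP library a labelled CAR-deficient, and without spleen library a labelled CAR-deficient its values were 2.06 and 1.74. Sh2d1a had -0.42 ± 0.31 and -0.55 ± 0.32. Tox (0.32 ± 0.44 and 0.02 ± 0.44), Tox2 (-0.05 ± 0.39 and -0.34 ± 0.39) and Cxcr5 (-0.06 ± 0.81 and -0.04 ± 0.81) had estimates within 1 SE of 0. An estimate near 0 with these errors does not show equal levels in gut and spleen.

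Partner genes of the lists did pass between gut and spleen. Among the other follicular helper genes, Irf4 rose in siLP by 2.15 ± 0.30 on the log2 scale (adjusted p = 0.00102 by edgeR), with a median of 60.1 CPM in siLP and 16.5 CPM in spleen. In cLP over spleen, Irf4 (2.38 ± 0.30, adjusted p = 2.86e-04), Icos (1.75 ± 0.32, adjusted p = 0.00627) and Stat3 (0.79 ± 0.18, adjusted p = 0.0273) rose by edgeR's test, and 0 of the list fell. Of the IL-21 signalling genes, the feedback inhibitor Socs3 rose by 1.97 ± 0.35 in siLP (adjusted p = 0.00839 by edgeR) and by 1.79 ± 0.35 in cLP (adjusted p = 0.00972 by edgeR). Of the genes tied to TOX, Ctla4 and the orphan nuclear receptors Nr4a1, Nr4a2 and Nr4a3 rose in both gut sites and 0 fell. Nr4a1, which follows T cell receptor signals, had a median of 172 CPM in siLP, 106 CPM in cLP and 4.58 CPM in spleen. The SLAM, progenitor-like, co-repressor and opposing lists had 0 members past the test in any organ comparison.

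The order of the 6 groups by mean level differed among the members. Tox2 had its 3 wild type groups on top, at 48.5 ± 4.11 CPM in spleen, 47.5 ± 29.4 CPM in siLP and 25.8 ± 8.53 CPM in cLP. Below them came CAR-deficient cells of cLP (15.9 ± 3.00 CPM), spleen (13.5 ± 9.39 CPM) and siLP (12.9 ± 2.92 CPM, SD, n = 3 each). Only the step between wild type and CAR-deficient cLP separated neighbouring groups of this order without overlap. Il21 and Cxcr5 had the wild type groups on top as well, and Tox had the CAR-deficient groups on top, but all neighbouring groups of those orders overlapped. Slamf6 was highest in wild type spleen (299 ± 85.3 CPM), whose libraries did not overlap with the next group, CAR-deficient spleen (204 ± 62.0 CPM). The margin was narrow, between 246 CPM in wild type library a and 243 CPM in library c labelled CAR-deficient. In Bcl6 and Sh2d1a every neighbouring pair overlapped.

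Among themselves the 7 genes did not form one block over the 18 libraries. Of the 21 pairs of members, Tox2 and Il21 had the highest Pearson correlation of log2 CPM, 0.569, and Il21 and Slamf6 the lowest, -0.574. The points share libraries and column endings, so these values are a description. The genes most like each member were sought among 8423 genes with a mean of at least 5 CPM. For Il21 they were Tnfrsf4 (r = 0.913), which encodes the costimulatory receptor OX40, Il10 (0.857), an anti-inflammatory cytokine, and Batf (0.855), a partner of IRF4 on DNA.

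Tnfrsf4 shared with Il21 the low place of library c. The siLP levels of Tnfrsf4 were 237, 211 and 148 CPM in libraries a, b and c labelled CAR-deficient, against 975, 449 and 116 CPM in wild type. In cLP it was at 519, 383 and 169.6 CPM in libraries labelled CAR-deficient, against 1355, 714 and 228 CPM in wild type. In every group library a of Tnfrsf4 was the highest and library c the lowest, whereas Il21 was higher in library b than in library a in siLP and spleen cells labelled CAR-deficient and in wild type spleen. Il10 had its highest levels, 574 and 417 CPM, in wild type library a of siLP and of cLP.

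**Figure D5:**
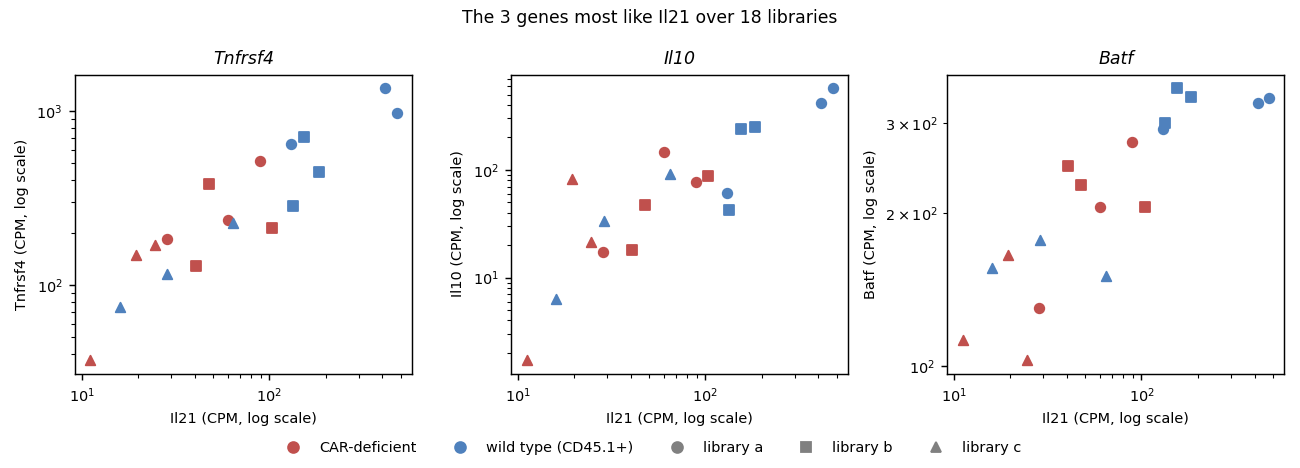
Levels of Tnfrsf4, Il10 and Batf against Il21 in the 18 libraries (CPM, log axes), coloured by genotype with marker shapes for libraries a, b and c. For Il10, wild type libraries a and b of spleen (60.4 and 42.1 CPM) lie below siLP library c labelled CAR-deficient (83.1 CPM) and cLP wild type library c (90.9 CPM).

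The genes most like Tox were Vmp1 (r = 0.858), a membrane protein of autophagy, Setbp1 (0.816) and Rbm47 (0.799). Vmp1 followed the same order within CAR-deficient cells as Tox, at 737, 706 and 175 CPM in siLP libraries a, b and c labelled CAR-deficient, against 370, 248 and 165 CPM in wild type. Tox2 was closest to N4bp2 (0.860), Gstt2 (0.848) and Cyb5b (0.840), and Bcl6 to Gfod1 (0.820), Max (0.785) and Dcaf1 (0.780). Cxcr5 was closest to Itprid2 (0.893), Arl16 (0.886) and Prkcb (0.875), a protein kinase C of lymphocytes, and had 39 genes above 0.8, the most of the 7 members. The genes named as most like Sh2d1a are Vamp5 (0.891) and Ms4a6d (0.845). Slamf6 was closest to Ifi209 (0.850), Trim25 (0.802) and Alkbh7 (0.80).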

How the data were processed

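Libraries were made with a SMART-Seq v4 low input kit and a NEBNext Ultra II kit, per the labels. The authors deposited estimated counts per gene, which need not be whole, per the file headers. The submitters' processing notes name Salmon, DESeq2 and mm10. The annotation is not given in the sources used here. Symbols and positions came from GENCODE vM21 on GRCm38 for 34083 of 34162 identifiers (79 unmatched), and 37 other value columns (abundance, length and import settings) were not used.

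Counts were rounded. edgeR 4.0.16 in R 4.3.3 kept 14876 genes (filterByExpr), scaled by TMM and fitted 6 group means to 18 libraries (common biological coefficient of variation 0.791). Each comparison used a two-sided glmQLFTest with Benjamini-Hochberg adjustment over all genes and a threshold of 0.05. SE was taken as |log2 fold change| divided by √F. Depth was 19605315 to 25436581 counts; 3 counts equal 0.108 to 0.185 CPM and cover counting error only. The libraries of a group are not said to come from separate animals, so p-values measure the spread between libraries, which may be technical.

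The members and gene lists were chosen with earlier results of these data known, and no test of a list was made. All members were named. From lists, up to 4 genes that passed were named, or where none did up to 2 of lowest p; likeness used the 3 highest Pearson correlations of log2 CPM (prior count 2), of which 1 is not reported here. Irf4, Il21r, Tcf7 and Tox4 were also given values between genotypes, chosen after their values were seen. Levels per kilobase used the union of annotated exons. Alternatives were DESeq2 1.42.0, RLE scaling, no filter, a column ending term, and leaving out libraries. On simulated data for the averaged genotype comparison, 14876 genes, edgeR recovered 30%, 70%, 90% and 98% of genes changed by 1, 2, 3 and 4 log2 units. For the siLP genotype comparison it recovered 2%, 32%, 64% and 82%, and for siLP minus spleen 10%, 58%, 84% and 94%. The changed genes were drawn from those with a mean above 5 CPM, and no effect of the column ending was simulated. Libraries of different groups with the same column ending had deviations correlated above 0.1 in 41 of 45 pairs, against 7 of 90 pairs with other endings. Fits without the column ending term took all libraries as independent. Their SE and p-values, also those averaged over organs or genotypes, do not allow for such shared deviations.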

Additional observations from a re-analysis of the deposited data

How the results depend on the processing

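No paired analysis was possible because the count columns carry no replicate numbers; the column ending was used as a batch term instead. The planned limma fit on log2(TPM + 1) was not run, since the abundance columns were not used. Over 7 alternatives that do not leave out 1 library, 305 of 343 fold changes of the 7 members kept direction and side of the threshold, 3 passed it and 35 changed sign; over single libraries left out, 840 of 882 kept both, 2 passed and 40 changed sign. The causes were not tested. RLE scaling changed no member's sign or call.

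Calls over all genes moved most with DESeq2, to 45 in siLP, 14 in cLP, 23 in spleen and 141 in the average of the genotype comparisons (1 member, Tox2), to 491 for siLP minus spleen, 1152 for cLP minus spleen (1 member, Slamf6) and 267 for siLP minus cLP, and to 15 (siLP minus spleen), 10 (cLP minus spleen) and 15 (siLP minus cLP) for differences of the genotype effect. Without the filter there were 10 in the genotype average and 32 for siLP minus cLP. The batch term gave 7 in the genotype average, 243 for siLP minus spleen, 747 for cLP minus spleen (1 member, Slamf6) and 16 for siLP minus cLP. Without the 6 libraries a there were 1, 2 and 1 genotype calls in siLP, cLP and spleen, 749 for cLP minus spleen and 162 for siLP minus cLP. Without libraries a and b of the wild type there were 1 in the genotype average, 6 for siLP minus spleen and 18 for cLP minus spleen. The batch term without those libraries, chosen after seeing the data, gave 1 in each organ's genotype comparison, 13 for siLP minus spleen and 40 for cLP minus spleen. Leaving out 1 library gave 1 to 3 calls in the genotype average, 78 to 130 for siLP minus spleen, 207 to 485 for cLP minus spleen (0 to 1 members) and 0 to 10 for siLP minus cLP.

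Member log2 fold changes with a changed sign, as CAR-deficient over wild type or the first organ over the other, were as follows. The batch term gave Bcl6 -0.21 in spleen and -0.000498 in the average, and Il21 -0.0256 for siLP over cLP. Without the 6 libraries a, Bcl6 was 0.0281 in siLP, -0.60 in cLP, -1.37 in spleen and -0.65 in the average, Tox -0.21 in spleen and Cxcr5 0.0769 for cLP over spleen. Without wild type libraries a and b, Il21 was 1.09 in siLP, 0.75 in spleen, 0.52 in the average and -0.49 for siLP over cLP. In that fit Sh2d1a was 0.78 in cLP, 0.0255 in spleen and 0.25 in the average, Cxcr5 0.28 in cLP and 0.34 for siLP over cLP, Bcl6 -0.0636 in the average and -0.25 for siLP over cLP, and Tox2 -0.14 for siLP over cLP. With the batch term and without those libraries, Tox was -0.18 in siLP, -0.65 in spleen and -0.26 in the average, and Bcl6 -0.74 in cLP, -1.21 in spleen and -1.04 in the average. In that fit Cxcr5 was 1.28 in cLP, 0.22 in spleen, 0.42 in the average and 0.0335 for siLP over cLP, Sh2d1a 0.38 and Slamf6 0.0933 in cLP, Tox2 -0.17 and Il21 -0.56 for siLP over cLP.

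Leaving out 1 library, the ranges that crossed 0 were, between genotypes, -0.31 to 0.83 for Tox and -1.62 to 0.67 for Bcl6 in spleen, -0.43 to 0.47 for Bcl6 in the average, -0.0450 to 2.36 for Bcl6 and -1.01 to 0.18 for Sh2d1a in cLP, and -0.61 to 0.58 for Slamf6 in siLP. For siLP over spleen they were -0.88 to 0.24 for Cxcr5 and -0.32 to 0.22 for Tox2, and for cLP over spleen -0.33 to 0.37 for Tox and -0.44 to 0.19 for Cxcr5. For siLP over cLP they were -0.84 to 0.38 for Cxcr5, -0.43 to 0.64 for Il21, -0.0349 to 0.48 for Sh2d1a and -0.0899 to 1.12 for Bcl6. Slamf6 in cLP over spleen ranged from -1.21 to -0.96 and passed the threshold in 2 of these fits.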
